A study of Mus musculus with 4 samples.

Results

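Obox and Oog transcripts were examined in germinal vesicle (GV) oocytes, fully grown oocytes still arrested in meiotic prophase, whose chromatin either did not surround the nucleolus (NSN, non-surrounded nucleolus) or did (SN, surrounded nucleolus). The genes were chosen by symbol as Obox1, Obox2, Obox3, Obox5, Obox6, Obox7, Oog1, Oog2, Oog3 and Oog4, and all 10 were among the 16861 genes listed in every library. Oocytes came from 3-week-old female C57BL/6J mice of no stated modification and were sorted by Hoechst staining in medium with milrinone, which holds meiotic arrest. Oocytes of neither clear configuration were left out. There were 2 Smart-seq2 libraries per configuration, each of poly(A) RNA from 15 pooled oocytes. The sources used here do not say whether the replicates came from separate mice, so p-values measure only the spread between libraries, which may be technical.

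The Obox genes encode homeobox proteins, which bind DNA, and lie as a cluster of related copies. In the mouse, OBOX proteins supplied by the oocyte and made by the early embryo are known to help start transcription of the embryonic genome. The Oog genes, or oogenesins, belong to the PRAME family of leucine-rich repeat proteins, a large multicopy family with many members transcribed in oocytes. The comparison of SN with NSN oocytes asks how far the stored transcripts of these families differ between a configuration that still transcribes and one that is largely silent.

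Both families were abundant in both configurations, with the exception of Obox3 and Obox6. Of the 8 abundant members, Oog4 fell and Oog1 rose from NSN to SN oocytes, and the other 6 did not pass the test. The fall of Oog4 was the one change that was also called after the libraries were rescaled to a common median. Because the copies resemble each other so closely, the sequences come first, followed by the levels and the comparison.

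The 6 Obox members lie on chromosome 7 of GRCm39 between 14393421 (start of Obox7) and 15573603 (end of Obox6). Obox1 (ENSMUSG00000054310.18) runs from 15122646 to 15290791, Obox2 (ENSMUSG00000074369.13) from 15122646 to 15132470 and Obox3 (ENSMUSG00000066772.14) from 15359227 to 15373827. Obox5 (ENSMUSG00000074366.11) runs from 15483527 to 15493725, Obox6 (ENSMUSG00000041583.10) from 15567166 to 15573603 and Obox7 (ENSMUSG00000055942.14) from 14393421 to 14399921. Oog2 (ENSMUSG00000066030.8, 143909941 to 143923504), Oog3 (ENSMUSG00000050810.9, 143884127 to 143889233) and Oog4 (ENSMUSG00000047799.16, 143163734 to 143176894) lie on chromosome 4. Oog1 (ENSMUSG00000096576.3, 87649458 to 87655620) lies on chromosome 12. All 10 are annotated as protein-coding in GENCODE vM39, the source of these positions, and the values sum exons, UTRs included. The exonic length recovered from the FPKM differed from that in vM39 for 6 of the 10 (Obox1, Obox3, Obox5, Obox6, Obox7 and Oog2), most for Oog2, with 2088 bases against 3211.

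Apart from Obox6, the Obox coding sequences were 92.9% to 98.5% identical over their aligned bases. Their lengths differ, from 453 bases in Obox2 to 1005 in Obox3, and unaligned bases were left out of the identity. The first 60 coding bases are printed (longest annotated coding transcript, GRCm39, 5′ to 3′, with capitals where a gene differs from Obox5).
Obox5: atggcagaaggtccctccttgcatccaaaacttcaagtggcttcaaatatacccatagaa
Obox7: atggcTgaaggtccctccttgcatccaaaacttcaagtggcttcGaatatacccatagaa
Obox1: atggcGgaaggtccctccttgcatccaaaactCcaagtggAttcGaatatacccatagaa
Obox2: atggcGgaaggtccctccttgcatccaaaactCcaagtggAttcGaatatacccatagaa
Obox3: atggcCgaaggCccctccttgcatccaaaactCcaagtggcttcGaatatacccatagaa
In this stretch Obox7 differed from Obox5 at 2 positions, and Obox1, Obox2 and Obox3 at 4 positions each. Over the aligned coding bases, Obox1 and Obox2 were 98.5% identical (453 bases) and Obox5 and Obox7 were 96.0% identical (654 bases). Obox6 was the most distant, at 76.6% to 81.1% identity to the others. The Oog members were 74.9% to 81.4% identical to each other in their coding bases, less alike than the Obox members other than Obox6.

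Promoter windows of 250 bases before the annotated start were found for 9 of the 10 members in RefSeq (GRCm38.p6), the exception being Obox6. RefSeq places the Obox1 window apart from that of Obox2 (chr7:15388741-15388850, plus strand), whereas vM39 starts both genes at the same base. The Obox1 window may therefore belong to a different start from the gene position given above. The 110 bases before the start of Obox5 (chr7:15750260-15750369, plus strand), Obox1 (chr7:15547147-15547256, plus strand) and Obox3 (chr7:15639778-15639887, minus strand) are printed because the first and second genes were abundant and the third was barely detected. Capitals mark TATATA.
Obox5: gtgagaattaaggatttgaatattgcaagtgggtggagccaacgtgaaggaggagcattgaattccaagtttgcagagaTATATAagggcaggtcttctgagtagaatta
Obox1: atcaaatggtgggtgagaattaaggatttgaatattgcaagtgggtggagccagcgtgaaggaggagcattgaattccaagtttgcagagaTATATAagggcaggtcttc
Obox3: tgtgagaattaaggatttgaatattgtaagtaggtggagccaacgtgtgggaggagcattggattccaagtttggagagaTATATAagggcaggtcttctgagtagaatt
Obox1 and Obox5 were 95.8% identical over 238 aligned bases of the whole window, and Obox3 and Obox5 76.2% over 227. TATATA began 31, 19 and 30 bases before the annotated start in Obox5, Obox1 and Obox3. It was not found in the windows of Obox2 and Obox7, both abundant, although the window of Obox7 ends in tatat. The window of Obox2 ends in atcaaatggtggg, the letters that open the printed stretch of Obox1, ahead of its TATATA. The windows of Obox1 and Obox2 were identical over their 153 aligned bases. Letters after the annotated start lie outside the windows, and whether Obox2 or Obox7 holds TATATA there was not tested. Of all 32851 RefSeq promoter windows of 250 bases, 5.25% held TATATA on either strand.

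The corresponding 110 bases are shown for the member that fell, Oog4 (chr4:143450325-143450434, minus strand), and the member that rose, Oog1 (chr12:87602555-87602664, plus strand), with capitals for TATATA and for the E-box letters CAGCTG.
Oog4: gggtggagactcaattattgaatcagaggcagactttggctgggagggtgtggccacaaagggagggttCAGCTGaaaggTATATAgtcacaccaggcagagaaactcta
Oog1: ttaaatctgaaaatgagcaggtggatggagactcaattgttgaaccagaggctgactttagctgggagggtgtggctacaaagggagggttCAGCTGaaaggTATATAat
Oog1 and Oog4 were 83.8% identical over 228 aligned bases of the 250-base window. Each of the 4 Oog windows held CAGCTG (13.0% of all windows). Each also held TATATA, at the share given above, and GGGTGTGGC (1.21% of all windows). CAGCTG began 41 bases before the start in Oog4, 42 in Oog3, 43 in Oog2 and 19 in Oog1. TAATTG, the letters of a NOBOX site, was found in Oog3 and Oog4 (7.17% of all windows), and GGATTA, the letters of a site of OTX-type homeobox proteins, was found in Obox3 (6.25%). Both strands were searched, TATATA and CAGCTG read the same on both, the motifs did not overlap in the members, and they were chosen with these sequences in view. Oog1 and Oog4 both held the letters in capitals, and the part of these letters in the levels was not tested.

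The authors kept read pairs above a minimum mapping quality, which leaves out pairs that align equally well at several places. How much of each member this could remove was measured as the percentage of exonic windows whose exact letters occur more than once in GRCm39, with exons from GENCODE vM39, which for those 6 members are not the same exons as those behind the FPKM. At 100 bases, this was 0.0% for Oog4 and Obox6, 2.1% for Obox5 and 3.2% for Obox7. It was 12.9% for Oog3, 16.5% for Oog2, 31.1% for Obox3, 48.3% for Obox2, 57.7% for Obox1 and 74.8% for Oog1. Of the windows of Oog1, 74.0% also occur in Gm2042, another protein-coding gene on chromosome 12 (87920850 to 87927453), and 26.5% in Pramel51. In vM39, Obox1 and Obox2 also share their first base, and 17.4% of the exonic bases of Obox2 lie in exons of Obox1. The separate values of Obox1 and Obox2, and that of Oog1, are therefore uncertain. The same holds for Obox3, with 61.7% of its windows repeated at 50 bases, against 66.4% for Obox2. The read length was not given in the sources used here, so windows of 50 and 150 bases are plotted as well.

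**Figure D1:**
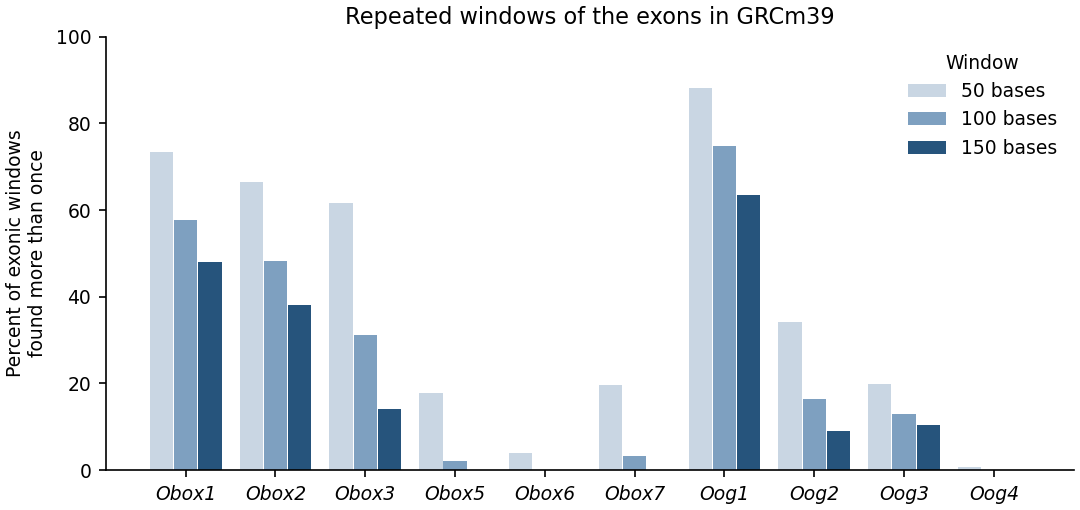
Bars give the percentage of exonic windows of each member that occur more than once in GRCm39, for windows of 50, 100 and 150 bases. Oog4, Obox5, Obox6 and Obox7 are almost free of repeated windows at 100 bases, whereas Oog1 reaches 74.8%.

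Levels are given as FPKM, read pairs scaled to gene length and to the read pairs of the library, which the authors deposited. Library totals recovered from the FPKM ranged from 17069772 to 17998361 read pairs, and a count of 3 read pairs equals an FPKM of 0.167 to 0.176 at a gene length of 1 kb, a limit for counting error only. All 12 oocyte markers were listed, with a summed FPKM of 23530 to 24950 in NSN and 16770 to 17390 in SN libraries, and limma called 8 of them lower in SN on the deposited FPKM (1.98% of all genes tested were called lower) and 4 after median scaling. Of 15 cumulus and granulosa cell markers, 10 were listed, with a summed FPKM of 9.68 to 13.6 in NSN and 13.4 to 14.2 in SN libraries, and none of the 4 tested was called by limma (0 at an unadjusted p under 0.05, and 0 called by voom on read pairs). Amh, Foxl2, Fst, Gatm and Amhr2 were not among the listed genes. The part of either in the results was not tested.

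Obox5 was the most abundant member. Its FPKM was 1564 in NSN replicate 1 and 1535 in NSN replicate 2, against 1699 and 1796 in the SN libraries, on 49853 to 59202 read pairs. Averaged over the 4 libraries it ranked as number 41 of 16861 genes. Obox2 had an FPKM of 1130 and 1102 in NSN and 922 and 1107 in SN libraries. Obox1 had 846 and 780 in NSN and 732 and 851 in SN libraries. For both genes the lowest value was that of SN replicate 1, and the configurations overlapped. Obox7 had an FPKM of 413 and 335 in NSN and 452 and 479 in SN libraries, with both SN libraries above both NSN libraries and a wider gap between the NSN replicates than in the other abundant members.

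Obox3 and Obox6, which are known mainly from the early embryo, were near the limit of detection. Obox3 had 11 and 18 read pairs in NSN and 7 and 10 in SN libraries, an FPKM of 0.284, 0.452, 0.184 and 0.250. Obox6 had 12 and 2 read pairs in NSN and 12 and 9 in SN libraries, an FPKM of 0.513, 0.0831, 0.523 and 0.372. Both had a mean FPKM under 0.5 and so did not enter the main test. When all listed genes were tested, neither passed (limma adjusted p = 0.321 for Obox3 and 0.540 for Obox6) on the log2(FPKM + 0.5) scale, which shrinks the change of such low genes. The mean FPKM of Obox3 was 0.368 ± 0.119 in NSN and 0.217 ± 0.0462 in SN (SD, n = 2), with both SN libraries below both NSN libraries, and that of Obox6 was 0.298 ± 0.304 in NSN and 0.448 ± 0.107 in SN (SD, n = 2), where the libraries overlapped.

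Among the oogenesins, Oog3 had an FPKM of 868 and 914 in NSN and 954 and 1013 in SN libraries. Oog4 had 1062 and 1050 in NSN and 730 and 799 in SN libraries. The NSN replicates were close together, the SN replicates were further from each other, and the configurations were apart. Oog1 had 231 and 244 in NSN and 298 and 300 in SN libraries, on 9865 to 13213 read pairs. The configurations were apart for Oog1 as well, and the SN replicates were nearly equal. Oog2 was the least abundant oogenesin, with 107 and 113 in NSN and 103 and 105 in SN libraries, and still ranked as number 625 of all genes.

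The order of the levels differed between configurations. In NSN oocytes it ran Obox5, Obox2, Oog4, Oog3, Obox1, Obox7, Oog1, Oog2, Obox3 and Obox6, and only the last pair of neighbours overlapped between libraries. In SN oocytes Oog4 stood in place 5 behind Oog3 and Obox1, and the neighbours Obox2 and Oog3, and Obox1 and Oog4, overlapped. Oog1, Obox1 and Obox2 had the most repeated windows, and the part of this in their place in the order was not tested.

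**Figure D2:**
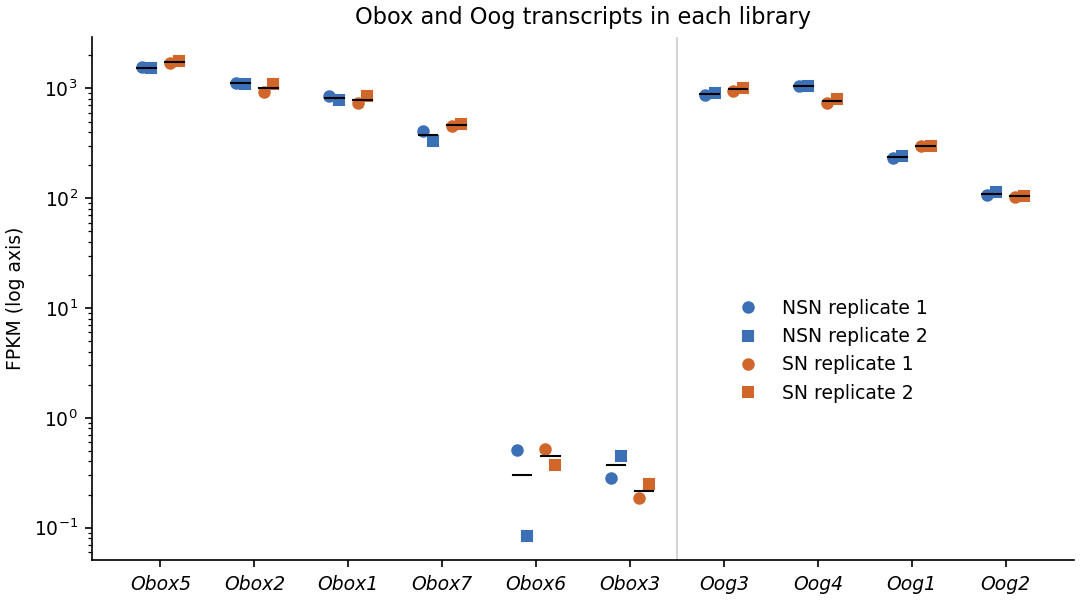
Points give the FPKM of each member in each library on a log axis, and black lines give the mean of the 2 libraries of a configuration. The 8 abundant members lie between 103 and 1796 in every library, whereas Obox3 and Obox6 lie below 1.

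SN was compared with NSN by limma on log2(FPKM + 0.5) over the 11672 genes whose FPKM averaged 0.5 or more, and a gene was called at a Benjamini-Hochberg adjusted p under 0.05 over all these genes and a fold change of at least 1.2. Of the 8 members tested, 2 were called, against 7.93% of all genes tested. Of these, 1 was higher in SN oocytes, against 5.95% of all genes, and 1 was lower, against 1.98%. Permuting 2 against 2 libraries exactly gives a smallest two-sided p of 0.333 for any member, so each p rests on limma's pooling of variance across genes. FPKM are shares of a library and hold no measure of RNA per oocyte, and in pools, fewer oocytes with a transcript and less of it per oocyte cannot be told apart.

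Averaged over libraries, Oog4 had 1056 ± 9.0 FPKM in NSN and 764 ± 48.7 in SN (SD, n = 2). It fell by 27.6%, and its log2 fold change was -0.47 ± 0.07 (SE; limma adjusted p = 0.0364). The median gene moved by 0.14 on the log2 scale on the deposited FPKM, and after scaling the libraries to a common median the change of Oog4 was -0.62 ± 0.09 (SE; limma adjusted p = 0.0451). Leaving out 1 library at a time gave -0.53 to -0.40. In those fits of 3 libraries, where the lone library is assumed to vary like the others, Oog4 was called without NSN replicate 2, and its adjusted p was 0.114 without NSN replicate 1, 0.0536 without SN replicate 1 and 0.0809 without SN replicate 2. It was not called without the variance trend or with all listed genes either, and its adjusted p ranged from 0.00132 to 0.114 over all alternatives. With the replicate number as a block it was 0.0498.

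Averaged likewise, Oog1 had 238 ± 9.2 FPKM in NSN and 299 ± 0.884 in SN (SD, n = 2). It rose by 25.7%, and its log2 fold change was 0.33 ± 0.07 (SE; limma adjusted p = 0.0454). After median scaling the change was 0.18 and was not called (limma adjusted p = 0.181), and it was not called with any of the libraries left out (log2 fold changes from 0.29 to 0.37). Nor was it called after quantile normalisation, without the variance trend or with all listed genes (limma adjusted p = 0.0559, 0.129 and 0.0693). Its adjusted p ranged from 0.00872 to 0.194 over the alternatives and was 0.0704 with the replicate block. Gm2042, which holds most of the letters of Oog1 and was chosen after its values were seen, had an FPKM of 353 and 375 in NSN and 372 and 421 in SN libraries (log2 fold change 0.12, limma adjusted p = 0.369). Added together, Oog1 and Gm2042 had 25389 and 27679 read pairs in NSN and 28523 and 32329 in SN libraries, with SN above NSN. Whether read pairs were exchanged between them was not tested.

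For Obox7 the mean went from 374 ± 55.7 to 465 ± 18.7 FPKM (SD, n = 2). Its log2 fold change, 0.32 ± 0.11 (SE), was close to that of Oog1, but the NSN replicates differed more and it did not pass (limma adjusted p = 0.104). Without NSN replicate 1 it was 0.48 and without NSN replicate 2 it was 0.17, so 1 library decides its size. Voom on the recovered read pairs called Obox7 (limma adjusted p = 0.0286), but voom with median scaling did not (limma adjusted p = 0.333). On the median-scaled FPKM, without voom, the limma adjusted p of Obox7 was 0.447. Obox5, its closest relative by coding sequence, gave 0.17 ± 0.07 (SE; limma adjusted p = 0.141), which became 0.02 after median scaling. The log2 fold change was -0.14 ± 0.10 for Obox2 (SE; limma adjusted p = 0.349) and -0.04 ± 0.09 for Obox1 (SE; limma adjusted p = 0.790). After median scaling they had -0.30 and -0.20, still not called.

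The remaining oogenesins gave small differences. For Oog3 the log2 fold change was 0.14 ± 0.07 (SE; limma adjusted p = 0.223), equal to the shift of the median gene, and -0.01 after median scaling. For Oog2 it was -0.07 ± 0.08 (SE; limma adjusted p = 0.531), and -0.23 after median scaling (limma adjusted p = 0.115). Oog2 shares 15.5% of its 100-base windows with Pramel26, which is also on chromosome 4.

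**Figure D3:**
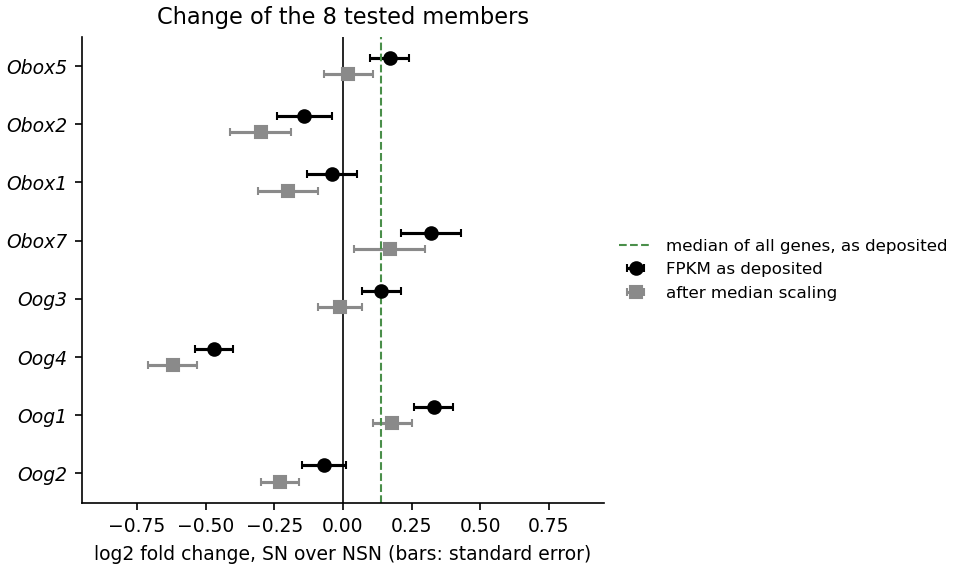
Points give the log2 fold change of SN over NSN for the 8 tested members with its standard error, on the FPKM as deposited (black) and after median scaling (grey), and the dashed line gives the median of all genes. Oog4 lies furthest to the left on both scales, at -0.47 and -0.62, and scaling moves every member down.

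The SN libraries lay above both NSN libraries for 4 of the 8 tested members (Obox5, Obox7, Oog1 and Oog3), against 44.8% of all genes tested. They lay below for 2 (Oog2 and Oog4), against 17.8%. The share that was higher is near that of all genes. The median log2 fold change of the 8 members was 0.05, with 4 above 0, against 0.14 for all genes. After median scaling it was -0.10, against 0.01 for all genes, and 1 of the 8 was called, against 2.21% of all genes.

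**Figure D4:**
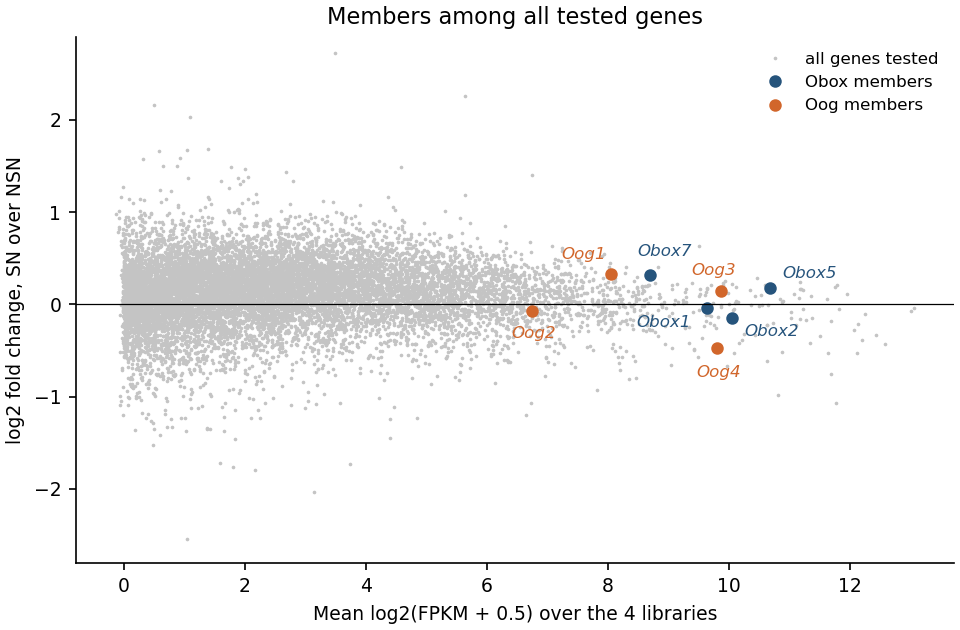
Each grey point is one of the 11672 genes tested, with its mean log2(FPKM + 0.5) on the horizontal and its log2 fold change of SN over NSN on the vertical axis, and the members are marked by family. The members sit at the abundant end, and Oog4, at -0.47, is the lowest of them.

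Ratios between members of the same library do not depend on how libraries are scaled. The ratio of Oog3 to Oog4 was 0.817 and 0.871 in NSN and 1.31 and 1.27 in SN libraries, so Oog4 was the more abundant in NSN and Oog3 in SN oocytes. The ratio of Oog1 to Oog4 was 0.218 and 0.233 in NSN and 0.409 and 0.375 in SN libraries, a difference of 0.80 on the log2 scale and the largest among the oogenesins. In the Obox family, the ratio of Obox2 to Obox5 was 0.723 and 0.718 in NSN and 0.543 and 0.616 in SN libraries. Obox5 therefore stood further above Obox2 in SN oocytes. The 12 ratios among the 8 abundant members, each within its own family, were apart between the configurations, but so were 70.7% of the ratios between any 2 of the 654 genes averaging an FPKM of 100 or more. A ratio shows unequal change only, and these were not tested. Ratios to Obox3 and Obox6 were not computed.

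The families were also summed per library. The summed FPKM of the Obox members was 3954 and 3752 in NSN and 3806 and 4234 in SN libraries, 0.651% to 0.735% of all read pairs, and the configurations overlapped. That of the Oog members was 2268 and 2320 in NSN and 2085 and 2216 in SN libraries, 0.417% to 0.462% of all read pairs, with SN below NSN. The log2 ratio of SN to NSN was 0.06 for the Obox sum and -0.09 for the Oog sum, and -0.09 and -0.25 after median scaling, whereas the shares below do not depend on scaling. Of the Oog sum, Oog4 made up 46.0% ± 1.1 (SD, n = 2) in NSN and 35.5% ± 0.74 in SN oocytes, Oog3 38.8% ± 0.79 and 45.7% ± 0.034, and Oog1 10.4% ± 0.24 and 13.9% ± 0.56. Oog2 held 4.78% ± 0.10 and 4.85% ± 0.14, which overlapped. Of the Obox sum, Obox5 made up 40.2% ± 0.96 in NSN and 43.5% ± 1.6 in SN oocytes, Obox2 29.0% ± 0.55 and 25.2% ± 1.4, and Obox7 9.68% ± 1.1 and 11.6% ± 0.41. Shares of a sum are tied to each other, and no test was made of them.

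**Figure D5:**
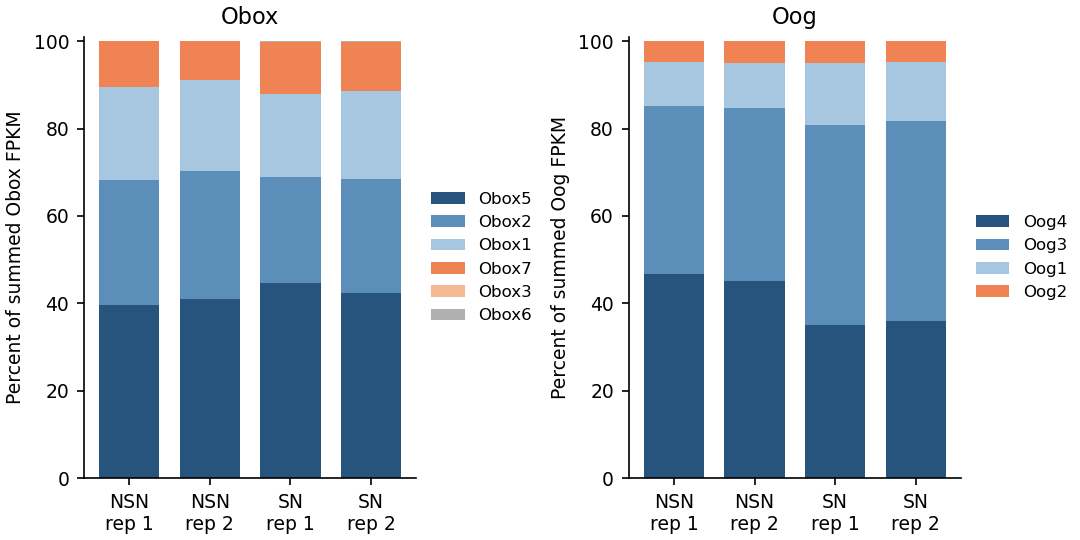
Stacked bars give the percentage of the summed FPKM of each family that each member takes in each library. Oog4 shrinks from 46.8% and 45.2% in the NSN libraries to at most 36.0% in the SN libraries, while Oog3 and Oog1 take larger shares, and Obox3 and Obox6 are too small to be seen.

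The other genes of both families were read from the same fit. The 8 other listed Obox symbols are pseudogenes of Obox3 and Obox4, 3 of them passed the filter and none was called by limma (2 had an unadjusted p under 0.05, and voom on read pairs called 0). Obox4-ps3 had 5 and 13 read pairs in NSN and 17 and 21 in SN libraries (limma adjusted p = 0.0983), and Obox4-ps31 had 8 and 7 against 13 and 16 (limma adjusted p = 0.131). Of 33 Pramel genes, the family of the oogenesins, 22 were tested and 2 were called, both lower in SN oocytes. Of all genes tested, 7.93% were called in either direction and 1.98% were called lower. Their median log2 fold change was 0.03, against 0.14 for all genes. Pramel51 and Pramel25 were the most abundant, with an FPKM of 2134 ± 50.5 and 2226 ± 18.5 in NSN and 2532 ± 85.6 and 2339 ± 196 in SN (SD, n = 2), and neither passed (limma adjusted p = 0.0690 and 0.581). Pramel58, annotated as a pseudogene, fell from 98.7 ± 6.7 in NSN to 65.3 ± 9.7 in SN oocytes (mean FPKM, SD, n = 2; log2 fold change -0.60, limma adjusted p = 0.0424). Pramel33 fell from 1.97 ± 0.587 in NSN to 0.567 ± 0.0746 in SN oocytes (mean FPKM, SD, n = 2), on 94 and 63 against 24 and 21 read pairs (log2 fold change -1.19, limma adjusted p = 0.0381).

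Of 11 other homeobox genes listed, 8 were tested and 1 was called, lower in SN oocytes, against 1.98% of all genes tested. Nobox, a homeobox factor needed for oocyte growth, fell from 315 ± 43.3 in NSN to 164 ± 1.55 in SN oocytes (mean FPKM, SD, n = 2), and its log2 fold change was -0.93 ± 0.10 (SE; limma adjusted p = 0.0364). Meis2, the most abundant of them, had 289 ± 1.39 and 290 ± 9.23 FPKM (SD, n = 2; limma adjusted p = 0.987). The 4 abundant Obox members had log2 fold changes from -0.14 to 0.32, and their difference from Nobox was not tested. With 1 library left out, Nobox and Pramel58 lost their calls without NSN replicate 1 and without SN replicate 2, and Pramel33 kept its call only without NSN replicate 2. Over all alternatives the limma adjusted p reached 0.0921 for Nobox, 0.101 for Pramel58 and 0.120 for Pramel33.

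The patterns most like those of the leading members were found by the distance between log2 values centred over the 4 libraries, among 3912 genes averaging an FPKM of 10 or more. Nearest to Obox5 were Zfp653, Cenpq and Jazf1 (distances of 0.017, 0.021 and 0.022). Nearest to Oog3 were Med7, 2410004B18Rik and Phb (distances of 0.0088, 0.011 and 0.016). The distances rest on 4 libraries and are a description.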

How the data were processed

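Smart-seq2 libraries of 2 NSN and 2 SN pools of 15 oocytes were analysed, grouped by sample title. The extraction protocol mentions 3 samples per group, and 2 per group were analysed here. The authors trimmed reads (Trim Galore 0.6.10), used HISAT2 for alignment (GRCm39) and featureCounts for unstranded counting of read pairs over exons (primary alignments, minimum mapping quality) and deposited FPKM per gene symbol. Whole read pairs were recovered for 99.86% of genes (tolerance 1e-05 read pairs) through the step size of 5 mitochondrial tRNA genes, which gave library totals of 17069772 to 17998361, and listed genes held 98.0% of them.

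FPKM are not counts, so SN was tested against NSN with limma 3.58.1 (R 4.3.3) on log2(FPKM + 0.5), with a variance trend, over genes averaging an FPKM of 0.5 or more. Fold changes on this scale understate those of low genes. The test was checked on simulated data, where the share of wrong calls was above the adjusted p threshold, so calls near that threshold are less certain than their adjusted p states. Alternatives were other pseudocounts and filters, median scaling, quantile normalisation, no variance trend, a replicate block, voom on the recovered read pairs and leaving out each library. Sequences of the same letters were sought in GRCm39 with GENCODE vM39, a later release than the authors' vM34, and promoters came from RefSeq (GRCm38.p6). Named genes were the 10 members, the called and the 2 most abundant genes of each list of relatives, and the 3 genes nearest in pattern to Obox5 and to Oog3. Gm2042 and Pramel26 were named in addition, for the letters they share with members, after their values were seen. Members and lists were chosen with earlier results of these data known. Whether libraries of the same replicate number were collected together is not stated in the sources used here. The correlation of their deviations across genes was -0.0703, which rests on 1 difference per configuration and cannot decide it.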

Additional observations from a re-analysis of the deposited data

How the results depend on the processing

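Of the members, 2 were called on the deposited FPKM (4 at an unadjusted p under 0.05). Limma called 1 after median scaling, quantile normalisation or voom with median scaling, and 0 with no filter (3 at an unadjusted p under 0.05) or no variance trend (2). With each library left out, it called 0 to 1. Of all genes, 926 were called (695 higher, 231 lower), 258 after median scaling (78 higher, 180 lower), 230 after quantile normalisation (74 higher, 156 lower), 1496 with the filter raised to an average FPKM of 5, 2297 by voom and 1711 by voom with median scaling. With no filter 0 were called (4092 at an unadjusted p under 0.05) and with no trend 0 (3449), and with each library left out 0 to 1685: 0 without NSN replicate 1, 1685 without NSN replicate 2, 148 without SN replicate 1 and 11 without SN replicate 2. Of the relatives, 3 were called, 5 with the filter raised to an average FPKM of 5, 1 after quantile normalisation, 7 by voom, 10 by voom with median scaling, 0 with no filter (12 at an unadjusted p under 0.05) or no trend (9), and 0 to 5 with a library left out.

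The replicate block left 1 member (Oog4) and 422 genes called. The sample titles give only a replicate number, and whether libraries of the same number were collected together is not stated. The fewer calls with the block therefore say nothing of a weaker effect. Obox1 turned to 0.04 after quantile normalisation and ranged from -0.15 to 0.07 with a library left out, and Oog3 turned to -0.01 under both median scalings, none of them called. The log2 ratio of the summed FPKM went from 0.06 to -0.09 (Obox) and from -0.09 to -0.25 (Oog) after median scaling, and ranged from -0.02 to 0.14 and from -0.14 to -0.05 with a library left out. The cause of these differences was not tested. Obox3 and Obox6 had 18 read pairs or fewer per library. The part of depth in this, and for Obox3 that of repeated windows, was not tested.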
